A study of Mus musculus with 4 samples.

Results

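The killer cell lectin-like receptors are surface receptors of natural killer (NK) cells and of some T cells. The 9 genes described here are Klra4, Klra8, Klra9, Klra7, Klra5, Klre1, Klrk1, Klrd1 and Klrb1c. They were taken by symbol from a table of 16706 genes, which holds 24 genes of the Klr family in all, and their transcript counts were summed over NK, CD8 T and gamma-delta T cells in each library. The counts are unique molecular identifiers (UMIs), 1 per captured RNA molecule, from droplet single-cell RNA sequencing of the 3′ ends of transcripts. Levels are UMIs per 1000000 UMIs of the cell class (CPM).

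The cells were all cells of kidneys of male C57Bl/6 mice aged 9 weeks with the genotype Pax2.rtTA;TetO.Cre;R26.Confetti, in which Pax2 drives an inducible Cre that acts on a multicolour reporter. All animals carried a kidney injury set by anti-GBM serum, which binds the basement membrane of the glomeruli, and were sacrificed on day 7. Treatment began on day 1. The histone deacetylase inhibitors were panobinostat (15 mg/kg) and givinostat (10 mg/kg), the Janus kinase inhibitor was ruxolitinib (60 mg/kg), and vehicle was distilled water. The labels give 2 animals and 1 library per group, do not say whether a library pools both animals, and include no animal without serum. With 1 library per group there is no test and no replicate check. Intervals are 95% intervals for counting error alone, and a difference is one between libraries.

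Background: NK cells weigh signals of activating receptors against those of inhibitory receptors, many of which read MHC class I on the cells they meet. In mice the Klra genes encode the Ly49 receptors, which single NK cells express in varied combinations. Klra4 (Ly49D) and Klra8 (Ly49H) are activating receptors that signal through the adaptor encoded by Tyrobp, whereas Klra9 (Ly49I) and Klra7 (Ly49G) are inhibitory. Klra5 (Ly49E) is known from fetal NK cells and from lymphocytes of epithelia and liver. Klrk1 encodes the activating receptor NKG2D, which reads stress ligands and signals through Hcst and Tyrobp. Klrd1 encodes CD94, the partner chain of the Klrc receptors, which read the class I molecule encoded by H2-T23. Klre1 encodes a receptor chain of NK cells, and Klrb1c encodes the receptor known as the NK1.1 antigen.

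All 9 genes lie on chromosome 6 (GENCODE vM21 on GRCm38) within chr6:128778485-130233322. This span of 1455 kb lies in the region known as the NK gene complex. The 5 Klra genes occupy chr6:129898996-130233322, all on the minus strand. With libraries pooled, most UMIs of Klra4, Klra8, Klra9 and Klra7 lay in 1 cell class and most of Klra5 in another. The promoters of all 5 are shown for that reason. The windows are the 250 bases before each RefSeq start site on GRCm38.p6, read 5′ to 3′ along the minus strand. They are chr6:130067272-130067521 for Klra4, chr6:130129899-130130148 for Klra8, chr6:130193113-130193362 for Klra9, chr6:130233323-130233572 for Klra7 and chr6:129913225-129913474 for Klra5. Capitals mark the 112 bases that were identical in all 5 windows when each was aligned to that of Klra8.
Klra4: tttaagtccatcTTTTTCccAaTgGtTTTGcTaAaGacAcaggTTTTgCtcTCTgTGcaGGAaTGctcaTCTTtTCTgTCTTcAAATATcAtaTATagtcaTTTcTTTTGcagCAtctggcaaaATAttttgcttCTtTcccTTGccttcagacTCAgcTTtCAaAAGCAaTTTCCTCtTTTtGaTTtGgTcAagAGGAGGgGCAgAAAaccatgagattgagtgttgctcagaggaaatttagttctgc
Klra8: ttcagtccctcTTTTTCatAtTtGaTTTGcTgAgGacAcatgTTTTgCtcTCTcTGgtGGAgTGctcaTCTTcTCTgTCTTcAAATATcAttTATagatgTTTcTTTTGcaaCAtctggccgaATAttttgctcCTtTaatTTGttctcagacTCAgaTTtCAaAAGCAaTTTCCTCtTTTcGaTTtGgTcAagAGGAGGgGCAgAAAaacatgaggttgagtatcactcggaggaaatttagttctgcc
Klra9: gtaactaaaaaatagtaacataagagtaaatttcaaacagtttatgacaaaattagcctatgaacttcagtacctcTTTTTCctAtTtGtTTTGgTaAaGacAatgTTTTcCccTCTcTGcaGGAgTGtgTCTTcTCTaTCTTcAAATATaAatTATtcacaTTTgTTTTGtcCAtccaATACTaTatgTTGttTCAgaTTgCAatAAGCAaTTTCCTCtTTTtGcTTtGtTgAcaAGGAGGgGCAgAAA
Klra7: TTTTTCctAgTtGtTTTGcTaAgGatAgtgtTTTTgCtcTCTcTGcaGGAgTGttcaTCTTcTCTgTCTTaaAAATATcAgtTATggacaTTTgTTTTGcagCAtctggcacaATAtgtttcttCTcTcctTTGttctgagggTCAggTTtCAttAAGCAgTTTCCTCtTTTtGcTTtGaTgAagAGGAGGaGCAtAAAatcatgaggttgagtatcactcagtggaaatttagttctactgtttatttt
Klra5: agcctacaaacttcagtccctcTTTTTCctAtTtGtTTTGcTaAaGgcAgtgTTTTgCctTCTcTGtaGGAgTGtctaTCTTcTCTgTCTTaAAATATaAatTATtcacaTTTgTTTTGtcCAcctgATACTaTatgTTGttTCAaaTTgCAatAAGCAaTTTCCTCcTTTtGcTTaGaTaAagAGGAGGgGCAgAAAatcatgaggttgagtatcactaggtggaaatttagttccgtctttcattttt

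Aligned pair by pair, these windows were identical at 76.8% (Klra4 with Klra5, 175 of 228) to 88.8% (Klra9 with Klra5, 174 of 196) of aligned bases. Bases set against a gap are left out of these shares, so the number aligned differs between pairs. The 2 activating genes, Klra4 and Klra8, matched at 85.1% (212 of 249), with the most identical bases of any pair. The RefSeq start site of Klra5 lies 4426 bases from the GENCODE 5′ end of the gene, so its window is upstream of 1 of its start sites only. Of the 8 members with a promoter entry, 3 (Klre1, Klrk1 and Klrb1c) held the RUNX motif TGTGGT on either strand, against 14.0% of 32851 mouse promoters of this length. No window held the STAT motif TTCNNNGAA or the T-box motif GGTGTGA, which occurred in 7.02% and 3.33% of all promoters. A match, or none, describes these letters only.

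Sequence also limits the counts. Of all runs of 50 bases in the last 500 bases of the Klra9 transcripts, 46.0% also occur in another Klr gene, most often Klra3. The share was 13.1% for Klra8 (with Klra9), 6.26% for Klrb1c (with Klrb1a), 4.66% for Klra4 (with Klra1) and 0 for the 5 other members. Levels of Klra9 in particular may therefore depend on how the authors' counting treated reads from shared sequence. Levels are compared below within a gene, not between genes.

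Facts of the libraries that bear on the receptors come first. The panobinostat, givinostat, ruxolitinib and vehicle libraries kept 4396, 3472, 3979 and 3930 cells with a median of 6568.5, 10020.5, 8370 and 7957.5 UMIs. The lowest UMI count of a kept cell differed too, at 2920, 5272, 3817 and 3723, and lymphocytes lie close to it. Only 20 barcodes were shared by any pair of libraries. Tpm3-rs7 stood at 3.96, 53.8, 53.8 and 4.14 CPM over all cells, so that panobinostat and vehicle libraries stood apart from givinostat and ruxolitinib libraries in a way the treatments do not name. Its part in the results below was not tested.

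Cells were clustered with every Klr gene left out, so that the receptors did not shape the classes. NK-like cells numbered 99, 95, 63 and 49 in the panobinostat, givinostat, ruxolitinib and vehicle libraries. Their defining genes fitted the name: the receptor gene Ncr1 stood at 398, 324, 437 and 380 CPM, the factor Eomes at 403, 379, 335 and 363 CPM and Gzma at 9072, 8286, 6895 and 8255 CPM. T cell transcripts were low there, with Cd3d at 10.0, 46.4, 3.02 and 4.37 CPM. Cd3d, Cd3e, Trac and Cd8b1 were highest in the givinostat NK-like cells, with Cd8b1 at 25.1 CPM there and at 0 in the other libraries. Trdc stood at 70.2, 69.04, 72.4 and 26.2 CPM, lowest in vehicle, and the red cell transcript Hbb-bs was highest under panobinostat, at 1979, 92.9, 202 and 48.1 CPM. Their part in the differences below was not tested.

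Gamma-delta cells formed a clear class of Type 17 gamma-delta T-like cells (31, 110, 90 and 125 cells) with Il17a at 1570, 3278, 2145 and 1686 CPM and Trdc at 907, 1245, 744 and 1062 CPM. A further 451 cells in 2 clusters (numbers 6 and 8) carried Xcl1, which encodes a chemokine, with Cd3d and Trdc, but had more NK than gamma-delta markers among their 10 leading genes. They are therefore not named as a cell type and are called Xcl1 lymphocytes. There were 103, 104, 91 and 153 of them. Xcl1 does not set them apart from NK-like cells. It stood at 2077, 2403, 1511 and 2235 CPM in Xcl1 lymphocytes and at 1330, 1319, 1960 and 1312 CPM in NK-like cells. In the ruxolitinib library it was thus higher in NK-like cells. CD8 T-like cells numbered 90, 141, 97 and 103, and naive CD8 T-like cells 65, 81, 69 and 58.

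The order of levels over classes split the members into 3 kinds. Klra4, Klra8, Klra9, Klra7, Klre1, Klrd1 and Klrb1c were highest in NK-like cells in every library. Klrk1 was highest there in the panobinostat, ruxolitinib and vehicle libraries, and stood level with the Xcl1 lymphocytes in the givinostat library (619 against 624 CPM). Klra5 was highest in Xcl1 lymphocytes in every library. Counted over all kept cells, NK-like cells held 83.8% of Klra8, 77.3% of Klra4, 73.1% of Klra9, 65.6% of Klra7, 59.3% of Klrb1c and 55.9% of Klre1 UMIs. They held 26.1% of Klrk1 and 25.3% of Klrd1 UMIs, which were spread over T and dendritic cells, and 5.04% of Klra5 UMIs, of which Xcl1 lymphocytes held 73.2%. These shares pool the libraries. In the vehicle library alone NK-like cells held 72.2% of Klra8, 56.1% of Klra4, 46.1% of Klra9 and 43.8% of Klra7 UMIs. They held 39.8% of Klrb1c and 30.3% of Klre1 UMIs there, where Xcl1 lymphocytes held 35.2% of Klre1.

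**Figure D1:**
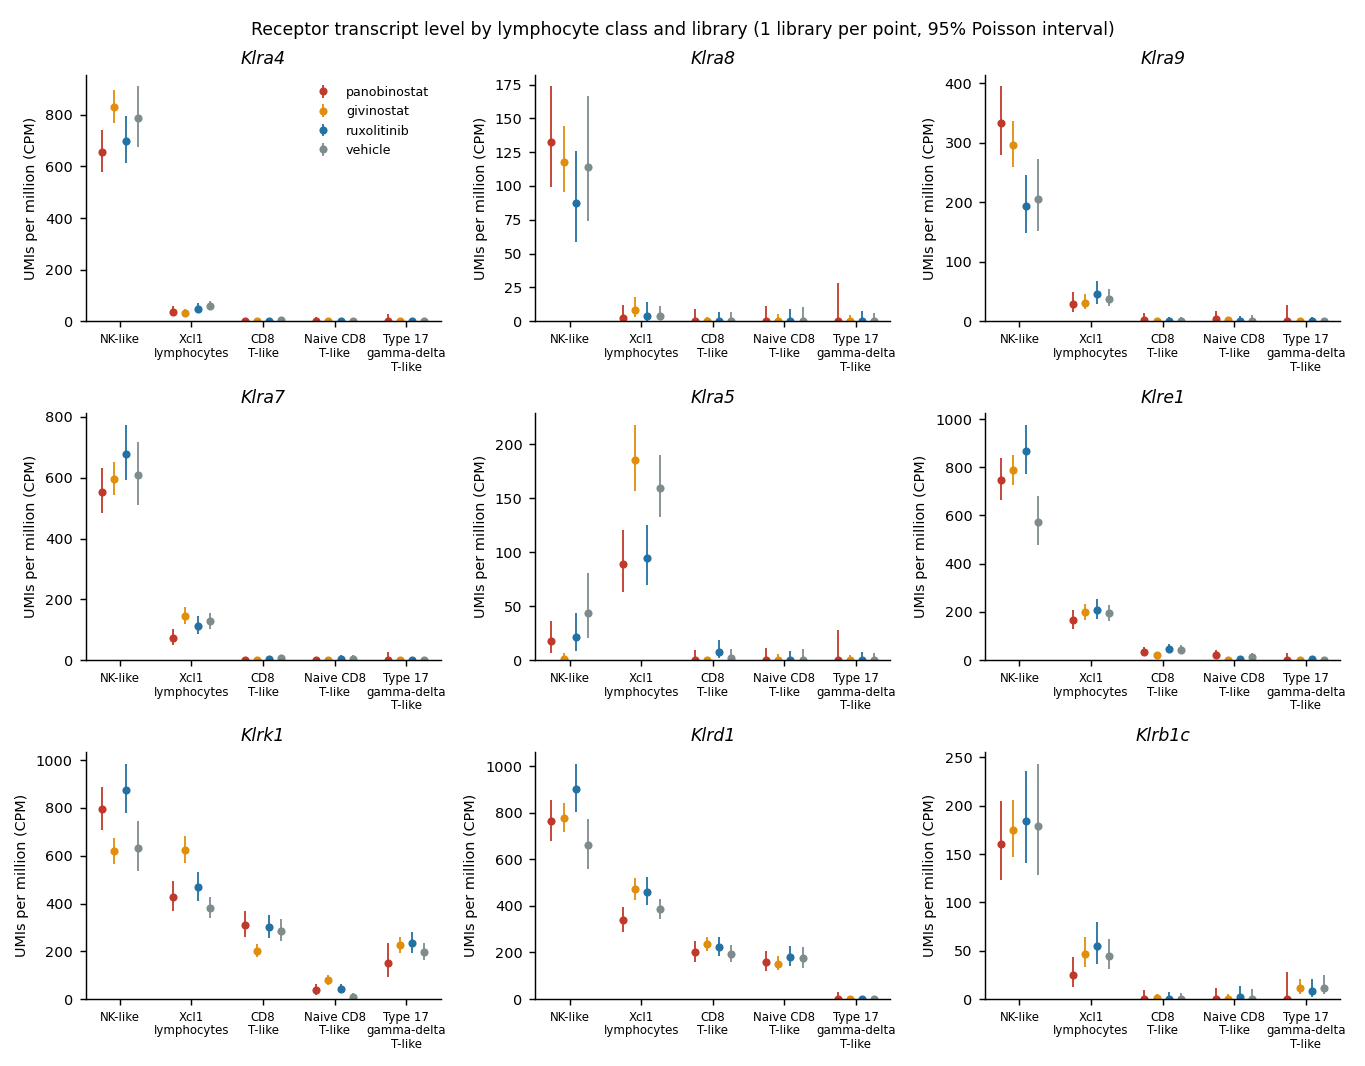
Level of each of the 9 receptor genes (vertical axes, CPM) in 5 lymphocyte classes; each point is 1 library (panobinostat, givinostat, ruxolitinib and vehicle from left to right within a class) and bars are exact 95% Poisson intervals. Klra5 peaks in Xcl1 lymphocytes (88.7 to 185 CPM), the 4 other Klra genes in NK-like cells, and Klrk1 and Klrd1 extend to the T cell classes.

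In NK-like cells neither activating Ly49 gene was 1.5-fold from vehicle in a drug library. Klra4 stood at 656, 830, 699 and 787 CPM in the panobinostat, givinostat, ruxolitinib and vehicle libraries. The interval of each drug library overlapped that of vehicle, and the ratios to vehicle were 0.834 (0.687 to 1.01), 1.05 (0.893 to 1.25) and 0.889 (0.728 to 1.09). Between drugs, the panobinostat interval (579 to 741) lay wholly below that of givinostat (768 to 895). Klra8, with few UMIs, stood at 133, 118, 87.4 and 114 CPM, and every interval overlapped those of the other libraries. The ruxolitinib library was lowest for Klra8, at a ratio of 0.769 whose interval of 0.437 to 1.36 allows a difference in either direction.

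The inhibitory Ly49 genes differed from each other. Klra9 stood at 333, 296, 193 and 206 CPM, high in the 2 libraries of histone deacetylase inhibitors; the panobinostat interval (279 to 395) lay above that of vehicle (151 to 273), and the givinostat interval (260 to 337) overlapped it. Its ratio to vehicle was 1.62 (1.15 to 2.31) for panobinostat, 1.44 (1.05 to 2.02) for givinostat and 0.939 (0.634 to 1.40) for ruxolitinib. The share of its 3′ sequence that Klra3 also holds limits this result to the reads counted for Klra9; Klra3 itself stood at 80.2, 79.1, 93.5 and 74.3 CPM. Klra7 stood at 554, 595, 678 and 608 CPM, with the interval of every drug library overlapping that of vehicle and ratios between 0.911 and 1.12. Klra5 was nearly absent, with 7, 1, 7 and 10 UMIs in 2, 1, 3 and 2 cells, and no ratio is drawn from it.

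The remaining receptors of NK-like cells were, apart from Klrb1c, higher than vehicle in the ruxolitinib library. Klre1 stood at 747, 788, 868 and 573 CPM, lowest in vehicle, and the intervals of givinostat and ruxolitinib lay above that of vehicle. Its ratios were 1.30 (1.06 to 1.61), 1.38 (1.14 to 1.67) and 1.52 (1.23 to 1.88). Klrk1 stood at 794, 619, 877 and 634 CPM, high in the panobinostat and ruxolitinib libraries at 1.25 (1.03 to 1.54) and 1.38 (1.13 to 1.70), while givinostat stood at 0.976 (0.809 to 1.18). Klrd1 stood at 764, 779, 901 and 660 CPM, and only the ruxolitinib interval lay above that of vehicle, at 1.37 (1.12 to 1.67). Klrb1c stood at 160, 174, 184 and 179 CPM, where all intervals overlapped and no ratio left the range 0.894 to 1.03.

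Set against all genes, these differences were not large. Of the 8 members at 50 CPM or more, 1 was at least 1.5-fold from vehicle in the panobinostat library (Klra9, higher), where 23.9% of 3190 genes at that level were and 12.9% were so in the higher direction. The count was 0 of 8 in the givinostat library, where 21.7% of 3174 genes were, and 1 of 8 in the ruxolitinib library (Klre1, higher), where 26.6% of 3288 genes were and 17.1% were higher. The share of members past the fold did not exceed that of genes at large in any drug library. Their median log2 ratio, taken with 5 CPM added to each level, was 0.21, 0.06 and 0.10, against 0.00, 0.03 and 0.06 for all genes. Summed over the 9 members, NK-like cells held 4159, 4201, 4510 and 3804 CPM, or 1.09 (1.01 to 1.19), 1.10 (1.02 to 1.19) and 1.19 (1.09 to 1.29) times vehicle. These counts depend on how cells are classed: with NK cells taken cell by cell as those with an Ncr1 and no Cd3 UMI, 3, 2 and 4 of 8 members passed 1.5-fold, where 26%, 27.3% and 35.5% of all genes did, so that under these gates the share of members was above that of genes in the panobinostat and ruxolitinib libraries. With DESeq2 size factors the ruxolitinib ratio of Klre1 was 1.43, and none passed there. Whether the NK-like ratios hold at 1 common lowest UMI count could not be computed, since 8 vehicle cells were left.

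**Figure D2:**
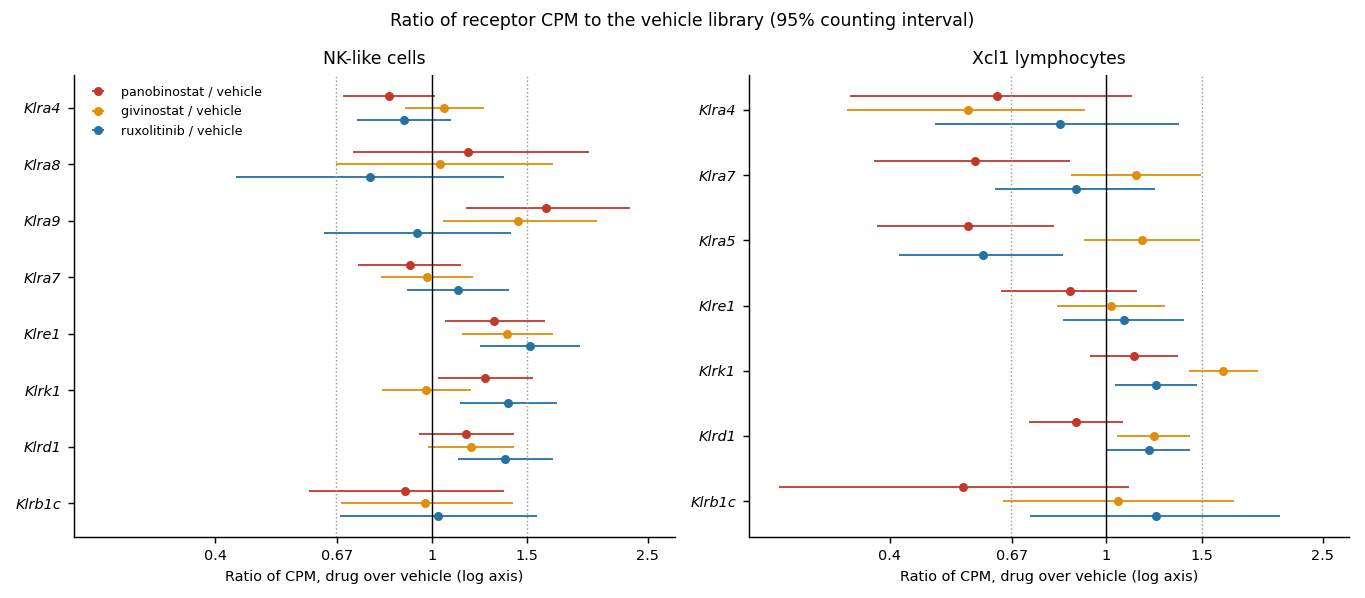
Ratio of each receptor's CPM in a drug library to that in the vehicle library (horizontal log axis) in NK-like cells and in Xcl1 lymphocytes, for members at 50 CPM or more in at least 1 comparison; bars are exact 95% counting intervals, the solid line is 1 and dotted lines mark 1.5-fold. Klra9 under panobinostat (1.62) and Klre1 under ruxolitinib (1.52) are the NK-like values past 1.5-fold, and Klrk1 under givinostat (1.64) is the one higher value past it in Xcl1 lymphocytes.

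Signalling partners of the receptors were measured in the same NK-like cells. Tyrobp, the adaptor of the activating Ly49 receptors, stood at 2601, 1972, 2180 and 2575 CPM, Fcer1g at 1824, 1466, 1640 and 1989 CPM and Hcst, the adaptor of the Klrk1 product, at 411, 388, 440 and 402 CPM. Of the listed adaptor and signalling genes at 50 CPM or more, 2 of 12 were at least 1.5-fold higher and 1 of 12 lower under panobinostat, 1 of 11 and 1 of 11 under givinostat, and 1 of 12 and 1 of 12 under ruxolitinib. Of all genes at that level in NK-like cells, 23.9%, 21.7% and 26.6% were past that fold in either direction. Among the lower ones was Sh2d1b1, an adaptor of SLAM family receptors, at 17.5, 23.8, 24.1 and 52.5 CPM, where only the panobinostat interval excluded 1 (0.334, 0.111 to 0.921). The class I genes that the inhibitory receptors read were within 1.5-fold of vehicle, H2-D1 at 2626, 2938, 2726 and 2484 CPM and H2-K1 at 2292, 2771, 2629 and 2317 CPM. Clec2d, whose product is a ligand of an inhibitory Klrb1 receptor, was the 1 of 5 measured ligand genes past 1.5-fold, higher under every drug at 103, 75.3, 145 and 43.7 CPM. Its interval excluded 1 for panobinostat (2.35, 1.16 to 5.26) and ruxolitinib (3.31, 1.65 to 7.34) but not for givinostat.

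Of the listed factors of NK cells, Zeb2 was past 1.5-fold higher under every drug, in ratios that all share the vehicle value. This factor of NK cell maturation stood at 271, 242, 241 and 127 CPM, lowest in vehicle, with ratios of 2.13 (1.41 to 3.34), 1.91 (1.29 to 2.93) and 1.90 (1.23 to 3.02). Id2, a factor that NK cells need, stood at 681, 723, 787 and 984 CPM, highest in vehicle, with ratios of 0.693 (0.578 to 0.830), 0.735 (0.629 to 0.861) and 0.80 (0.667 to 0.960). Tox was past 1.5-fold lower under every drug, at 45.1, 48.95, 39.2 and 74.3 CPM, with intervals that include 1 throughout. Of 10 measured factors, 1 was higher and 1 lower past that fold under panobinostat and under givinostat, and 2 were higher and 2 lower under ruxolitinib. Over all genes 23.9%, 21.7% and 26.6% were past it in either direction. Of the other family genes, Klrc1, whose product pairs with that of Klrd1 to form an inhibitory receptor, stood at 47.6, 55.2, 69.3 and 91.8 CPM in NK-like cells, with ratios of 0.518 (0.264 to 1.01), 0.601 (0.350 to 1.06) and 0.755 (0.40 to 1.43). In Xcl1 lymphocytes it stood the other way, at 97.5, 85.3, 84.7 and 49.7 CPM, lowest in vehicle, with ratios of 1.96 (1.24 to 3.10), 1.71 (1.14 to 2.61) and 1.70 (1.08 to 2.70). The difference between the classes was not tested. Klrc2, the activating counterpart, stood at 115, 105, 181 and 153 CPM in NK-like cells.

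The other genes of the family were measured in the same way. In NK-like cells the Ly49 gene Klra1 stood at 218, 236, 199 and 192 CPM, Klrb1a at 175, 158, 142 and 170.5 CPM, Klrg1, a receptor of mature NK and effector T cells, at 65.1, 103, 63.3 and 91.8 CPM and Klrb1f at 57.6, 62.8, 63.3 and 74.3 CPM. Of the 7 at 50 CPM or more in NK-like cells, Klrc1 alone was past 1.5-fold, lower under panobinostat and givinostat, and none was under ruxolitinib. The share of all genes past it in either direction was 23.9%, 21.7% and 26.6%. Klra10 held 18.1 to 47.6 CPM there, Klrb1b 15.1 to 21.9 CPM, Klrc3 8.74 to 20.04 CPM and Klri1 0 to 18.1 CPM. In Xcl1 lymphocytes Klra1 stood at 39.9, 100.1, 53.2 and 82.9 CPM, lower than vehicle under panobinostat at 0.481 (0.269 to 0.821) and under ruxolitinib at 0.641 (0.394 to 1.02), and Klra6 at 8.87, 28.4, 51.2 and 19.1 CPM, higher under ruxolitinib at 2.68 (1.37 to 5.44). Of the other family genes at 50 CPM or more in Xcl1 lymphocytes, 1 of 3 was past 1.5-fold higher and 1 lower under panobinostat. Under givinostat 2 of 4 were higher, and under ruxolitinib 2 of 4 higher and 1 lower, not all of which are named here. Of all genes there 11.9%, 12.6% and 12.4% were past it in either direction. Klrg1 in CD8 T-like cells stood at 42.1, 47.2, 59.3 and 20.1 CPM, with a ruxolitinib ratio of 2.95 (1.45 to 6.48). It was 1 of 3 such genes past 1.5-fold under ruxolitinib, where 14% of all genes were.

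The remaining listed genes of NK-like cells follow. Lck stood at 271, 286, 220.1 and 236 CPM and B2m, the light chain of class I, at 2621, 3238, 3087 and 2943 CPM. The phosphatase genes Ptpn6, at ratios of 1.58, 1.54 and 2.15, and Ptpn11, at 1.72 under panobinostat, were the adaptor and signalling genes past 1.5-fold higher, all with intervals that include 1. Of other NK receptors, Cd160 was past it under ruxolitinib (1.59, 0.726 to 3.73), while Cd7 and Fcgr3 were not under any drug. Among the factors, Runx3 and Eomes stayed within 1.5-fold, and under ruxolitinib Ikzf3 was higher (1.63, 0.936 to 2.96) and Nfil3 lower (0.613, 0.339 to 1.10). Itgam under givinostat (1.57, 1.03 to 2.48) was the 1 of 5 measured genes of resident or circulating cells past it, and Klf2, Rgs1 and Itga2 were within it. Under givinostat 21.7% of all genes were past it.

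Which receptors single NK-like cells carried was counted after each cell was thinned to 2500 UMIs. Klre1, Klrk1 and Klrd1 were detected in most cells of every library: Klre1 in 81.8%, 84.2%, 87.3% and 75.5%, Klrk1 in 83.8%, 76.8%, 87.3% and 71.4% and Klrd1 in 83.8%, 69.5%, 84.1% and 79.6% of panobinostat, givinostat, ruxolitinib and vehicle cells. The Klra genes were each in part of the cells: Klra4 in 62.6%, 64.2%, 57.1% and 71.4%, Klra7 in 53.5%, 47.4%, 60.3% and 53.1%, Klra9 in 44.4%, 36.8%, 27.0% and 36.7% and Klra8 in 19.2%, 20%, 14.3% and 16.3%. Without thinning Klra4 was found in 71.7%, 74.7%, 69.8% and 83.7% of these cells. Proximal tubule-like cells, which should lack these genes, had a UMI of any 1 member in at most 0.518% of cells after thinning, with median depths of 7668, 12823, 10378 and 9781 UMIs against 3657, 7879, 4948 and 4458 in NK-like cells. Shares of Klra4, Klra7, Klra9, Klra8, Klre1, Klrk1 and Klrd1 in NK-like cells were far above this background. For every member the intervals of these thinned shares overlapped between each drug library and vehicle, Klra9 included.

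NK-like cells carried mixed sets of Ly49 genes. Of all 306 NK-like cells after thinning, 11.4% had a UMI of none of the 5 Klra genes, 29.1% of 1, 37.6% of 2, 18.3% of 3 and 3.59% of 4, and no cell had all 5. The mean per cell was 1.82, 1.68, 1.62 and 1.82 genes in the panobinostat, givinostat, ruxolitinib and vehicle libraries. Before thinning it was 2.23, 2.36, 2.02 and 2.20, where the deep givinostat library led. In cells as deposited, 69 of 99, 67 of 95, 38 of 63 and 33 of 49 had both an activating gene (Klra4 or Klra8) and an inhibitory one (Klra9 or Klra7). Klra4 and Klra7 were found together in 154 cells, and 39 of 306 cells had neither. Most cells with Klra8 also had Klra4 (70 of 80). Klra4 was common without Klra8 too: 157 cells had Klra4 alone of the 2, and 69 had neither. The part of sequence shared between Klra genes in these counts was not tested.

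**Figure D3:**
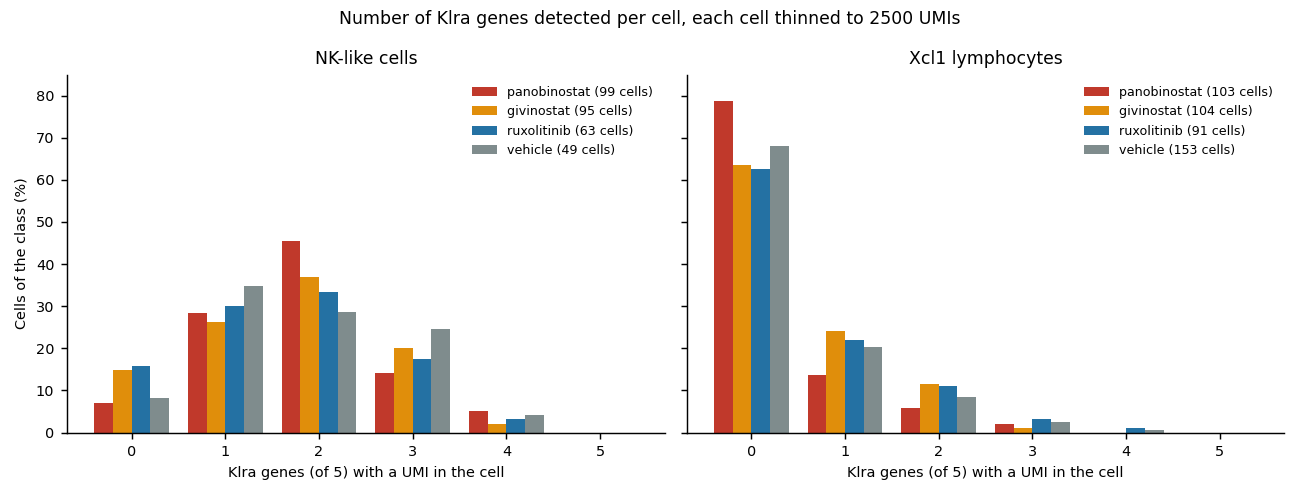
Share of cells (vertical axis, %) by the number of Klra genes, of 5, with a UMI in the cell (horizontal axis), after each cell was thinned to 2500 UMIs; bars are the panobinostat, givinostat, ruxolitinib and vehicle libraries from left to right. NK-like cells peak at 1 or 2 genes, while 62.6% to 78.6% of Xcl1 lymphocytes have none.

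Xcl1 lymphocytes carried a different set. Klra5 stood at 88.7, 185, 94.5 and 159 CPM in the panobinostat, givinostat, ruxolitinib and vehicle libraries, low in panobinostat and ruxolitinib, whose intervals lay below those of givinostat and vehicle. Its ratios to vehicle were 0.556 (0.379 to 0.80), 1.16 (0.911 to 1.49) and 0.593 (0.416 to 0.833). These levels rest on few cells: 12 of 103, 22 of 104, 15 of 91 and 27 of 153 cells had a UMI, and the highest single cell gave 8, 21, 7 and 14 of the 40, 150, 48 and 125 UMIs. After thinning the shares were 8.74%, 14.4%, 14.3% and 16.3%, with intervals that overlap throughout, so the share of cells does not separate ruxolitinib from vehicle. With a finer lymphocyte clustering the ratios were 0.820, 1.92 and 0.717, where panobinostat and ruxolitinib no longer passed 1.5-fold and givinostat did.

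The other Ly49 genes were low in Xcl1 lymphocytes. Klra7 stood at 73.2, 145, 112 and 128 CPM, low in panobinostat at 0.574 (0.375 to 0.858) of vehicle. Klra4 stood at 37.7, 33.4, 49.2 and 60.0 CPM, with an interval that excludes 1 for givinostat (0.557, 0.333 to 0.912) and not for panobinostat (0.629, 0.338 to 1.12). Klra9 held between 28.8 and 45.3 CPM and Klra8 between 2.22 and 8.65 CPM. Klrk1 stood at 428, 624, 469 and 380 CPM, high in givinostat, whose interval lay above the others. Its ratios to vehicle were 1.13 (0.934 to 1.35), 1.64 (1.42 to 1.90) and 1.23 (1.04 to 1.47). These differed within the class. Klrk1 stood at 452, 482, 335 and 377 CPM in cells with a Cd3 and a Trdc UMI. It stood at 331, 600, 551 and 320 CPM in cells with a Cd3 and a Trac but no Trdc UMI. Cells with no Cd3 UMI gave 126 of its 505 givinostat UMIs and 32 of its 298 vehicle UMIs. Klrd1 stood at 339, 471, 461 and 385 CPM and Klre1 at 166, 198, 209 and 194 CPM, all within 1.5-fold. Klrb1c stood at 24.4, 47.0, 55.2 and 44.6 CPM.

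In this class the members at 50 CPM or more included 3 of 6 at least 1.5-fold lower under panobinostat (Klra4, Klra7 and Klra5), where 11.9% of 2984 genes were past that fold in either direction and 6.03% were lower. Under givinostat 1 of 6 was higher (Klrk1) and 1 of 6 lower (Klra4), where 12.6% of 3071 genes were past it, 9.7% higher and 2.93% lower, and under ruxolitinib 1 of 7 was lower (Klra5), where 12.4% of 3117 genes were past it and 2.92% were lower. Klra4 reached 50 CPM in the vehicle library only, at 60.0 CPM against 37.7 under panobinostat and 33.4 under givinostat. It could therefore not have been counted as higher. The panobinostat count rests on the clustering: at the finer resolution 1 of 6 passed (Klra7), where 13.7% of genes did in either direction, and Klra4 stood at 0.711 and Klra5 at 0.820. The summed level was 1188, 1743, 1499 and 1393 CPM, with ratios of 0.853 (0.768 to 0.947), 1.25 (1.16 to 1.36) and 1.08 (0.980 to 1.18). The median log2 ratio of all genes was -0.01, 0.09 and 0.10, so the givinostat and ruxolitinib values stand on a slightly raised base.

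Klra5 was found both in cells with a Trdc UMI and in cells with a Trac but no Trdc UMI. Trac does not tell the receptor of a cell here. Type 17 gamma-delta T-like cells held it at 213, 176, 173 and 144 CPM in the panobinostat, givinostat, ruxolitinib and vehicle libraries. Which receptor the cells carried was not tested. In the 169 cells with a Cd3 and a Trdc UMI, where Trdc encodes the delta chain, Klra5 stood at 165 CPM over all libraries. In the 196 cells with a Cd3 and a Trac UMI but no Trdc UMI it stood at 144 CPM, and in the 46 cells with no Cd3 UMI at 45.5 CPM on 12 UMIs. The libraries were not alike in this: Klra5 stood at 61.0, 294, 80.1 and 192 CPM in the Trdc cells of the panobinostat, givinostat, ruxolitinib and vehicle libraries, and at 182, 182, 89.5 and 115 CPM in the Trac cells. Panobinostat was thus below vehicle in Trdc cells (12 UMIs in 45 cells, against 57 UMIs in 57 cells) and above it in Trac cells (28 UMIs in 34 cells, against 39 UMIs in 68 cells). That difference was not tested. Cells with no Cd3 UMI had Klrk1 at 854 CPM, Klrd1 at 558 CPM and Ncr1 at 429 CPM. By cluster, Klra5 stood at 46.1, 175, 60.2 and 142 CPM in cluster 6 and at 160, 201, 132 and 175 CPM in cluster 8, so the gap of panobinostat and ruxolitinib to vehicle was wider in cluster 6. Klra7 differed between the clusters the other way, at 152 CPM over all libraries in cluster 6 and 81.7 CPM in cluster 8.

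The classes that separate Klra5 from the other Klra genes also differ in genes known from tissue-resident and circulating NK cells. Itga1, an integrin of resident cells, stood at 55.4, 126, 98.5 and 81.6 CPM in Xcl1 lymphocytes, against 2.51, 1.26, 6.03 and 0 CPM in NK-like cells. Cxcr6 and Inpp4b, also known from resident cells, ran the same way, with 191 to 218 and 151 to 259 CPM in Xcl1 lymphocytes, against 0 to 13.8 and 8.74 to 17.5 CPM in NK-like cells. Itga2, an integrin of circulating NK cells, ran the other way, at 15.5 to 37.4 CPM against 144 to 212 CPM, as did Itgam at 0 to 3.94 CPM against 114 to 178 CPM. Rgs1, also listed as a gene of resident cells, did not separate the classes in this way. It stood at 827, 1798, 1657 and 1413 CPM in Xcl1 lymphocytes, against 872, 1142, 989 and 962 CPM in NK-like cells. Under panobinostat it was thus lower in Xcl1 lymphocytes. The clusters were defined on these genes among others, so this describes the classes and is no independent result.

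In Type 17 gamma-delta T-like cells Klrk1 was the single member above 50 CPM. It stood at 152, 224, 233 and 195 CPM in the panobinostat, givinostat, ruxolitinib and vehicle libraries, with overlapping intervals. The ratio to vehicle was 1.15 (0.904 to 1.46) for givinostat, where 13.4% of 3227 genes passed 1.5-fold, and 1.19 (0.913 to 1.55) for ruxolitinib, where 13.2% of 3160 did. The panobinostat library held 31 such cells, under the 40 used here for a ratio. After thinning, 19.4%, 35.5%, 28.9% and 33.6% of these cells had a Klrk1 UMI. Klrd1 was all but missing there, with 0, 0, 1 and 0 UMIs, where 3 counts would be 22.9, 3.68, 5.97 and 5.10 CPM. No UMI of the 5 Klra genes was found in any of the 356 cells. Ncr1 and Klrb1c were at 0 or near it, with at most 11.9 CPM of Klrb1c.

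CD8 T-like cells carried Klrk1 and Klrd1. Klrk1 stood at 310, 203, 300 and 285 CPM, lowest in the givinostat library, whose interval lay below the others, at 0.710 (0.576 to 0.877) of vehicle. The ratios for panobinostat and ruxolitinib were 1.09 (0.851 to 1.38) and 1.05 (0.840 to 1.32). Klrd1 stood at 201, 235, 222 and 192 CPM with overlapping intervals. None of the 2 members at 50 CPM or more passed 1.5-fold, where 12.9%, 9.6% and 14% of all genes did under panobinostat, givinostat and ruxolitinib. The givinostat library was thus highest for Klrk1 among Xcl1 lymphocytes and lowest among CD8 T-like cells. Klre1 was low at 32.2, 19.99, 46.3 and 42.1 CPM. Klra4 had 0, 3, 1 and 3 UMIs there.

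Naive CD8 T-like cells carried Klrd1 and little else. Klrd1 stood at 159, 152, 181 and 176 CPM, with ratios of 0.902 (0.612 to 1.33), 0.862 (0.624 to 1.20) and 1.03 (0.726 to 1.46), and was detected in 29.2%, 24.7%, 39.1% and 37.9% of cells after thinning. Klrk1 stood at 36.6, 77.9, 40.5 and 8.50 CPM. It lay in 4, 6, 4 and 2 cells, so its givinostat ratio of 9.16 (2.97 to 45.8) rests on 54 UMIs in 6 cells against 3 UMIs in 2 vehicle cells. It made 1 of 2 members past 1.5-fold there, where 18.4% of 2510 genes were and 13.4% were higher. Klrk1 reached 50 CPM in the givinostat library only, so it could not have been counted as lower. Under panobinostat and ruxolitinib 0 of 1 member passed, where 21.5% and 21.7% of genes did.

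Klrd1 was also found in dendritic-like cells, outside the lymphocytes. The cluster led by Cd209a held 108, 150, 161 and 151 CPM in 155, 149, 166 and 165 cells of the panobinostat, givinostat, ruxolitinib and vehicle libraries, low in panobinostat at 0.715 (0.589 to 0.867) of vehicle. The Siglech cluster, with genes of plasmacytoid dendritic cells, held 71.1, 29.97, 68.1 and 36.0 CPM, and the Xcr1 cluster 21.4, 32.1, 28.9 and 14.0 CPM. T and NK genes were low in the Cd209a cluster, with Cd3e at 11.9, 43.4, 11.8 and 16.4 CPM and Ncr1 at most 1.70 CPM. Klrk1 stood at 14.3, 21.9, 16.3 and 42.5 CPM in that cluster, highest in vehicle, with drug ratios of 0.336 (0.203 to 0.539), 0.516 (0.355 to 0.745) and 0.385 (0.251 to 0.580). Xcr1, at 0, 0.843, 0.908 and 5.66 CPM, and Ncr1, at 0, 0.422, 0.454 and 1.70 CPM, were also highest in vehicle in that cluster, and Cd3e in givinostat. The Xcr1 cluster carried Klrk1 at 34.3, 32.1, 43.4 and 40.7 CPM. Their part in the Klrk1 values was not tested. In the Siglech cluster Klrk1 had 0, 1, 5 and 1 UMIs.

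**Figure D4:**
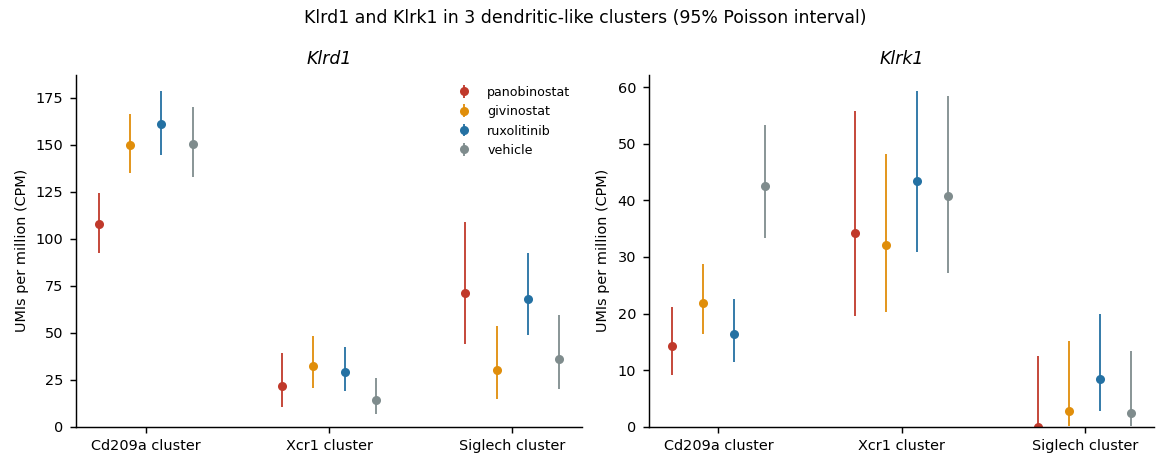
Level of Klrd1 and Klrk1 (vertical axes, CPM) in 3 dendritic-like clusters named by a leading gene; points are the panobinostat, givinostat, ruxolitinib and vehicle libraries from left to right and bars are exact 95% Poisson intervals. In the Cd209a cluster Klrd1 is lowest under panobinostat (108 CPM) and Klrk1 is highest in vehicle (42.5 CPM).

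The share of cells in each class differed as well, which sets how many receptor UMIs a library held. NK-like cells were 2.25%, 2.74%, 1.58% and 1.25% of kept cells, and Xcl1 lymphocytes 2.34%, 2.995%, 2.29% and 3.89%. Because the lowest UMI count differs between libraries and NK-like cells lie close to it, these shares cannot be told apart from that limit: with every library held to 5272 UMIs, 10, 95, 24 and 8 NK-like cells were left.

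Across 18 classes and 4 libraries, 72 points in all, the genes outside the family whose level was most like the members' mean were Ncr1 (Pearson r of log2 values 0.952), Qrfp (0.921), Il12rb2 (0.914), Adamts14 (0.903) and Samd3 (0.891), of 7452 genes compared. The points share libraries and class totals, so r is a description. Among the members Klra4 and Klra9 were most alike (0.978), and Klra8 and Klra5 least (0.484).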

How the data were processed

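Total cells of kidneys were profiled in 4 libraries, 1 per group. The authors deposited UMI counts, made with Cell Ranger 3.0.1 on the mm10 build per the submitters' processing notes, as 1 matrix of all libraries. Barcode suffixes name the drugs, and the suffix CTRL was taken as vehicle. Of 16003 cells, 226 were left out for having fewer than 200 genes, fewer than 500 UMIs or 50% or more of mitochondrial UMIs. Kept cells held 36861583, 45075309, 42882138 and 40627826 UMIs in the panobinostat, givinostat, ruxolitinib and vehicle libraries.

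Cells were scaled to 10000, clustered with scanpy 1.11.5 (2000 variable genes, 30 components, 15 neighbours, resolution 1.0, Python 3.11.15) without Klr genes, and lymphocytes were clustered again. Classes were named from marker lists, and 4 lymphocyte clusters stayed unnamed. Levels are counts per 1000000 counts of the class with exact Poisson intervals, shares have Clopper-Pearson intervals, and ratios have conditional binomial intervals. They cover counting error only. A ratio needed 40 cells in both libraries, lowered from 50 because vehicle held 49 NK-like cells. A gene was counted past the fold at 1.5-fold or more in either direction, with 50 CPM or more in either library, and log2 ratios used a pseudocount of 5 CPM. Alternative scaling used edgeR 4.0.16 (TMM) and DESeq2 1.42.0 factors only, without their tests.

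Scrublet called 0.0682%, 2.30%, 0.302% and 0.0254% of cells doublets, too few to have worked in the panobinostat, ruxolitinib and vehicle libraries, and no cell was removed on that ground. All ratios share the vehicle library. The 9 members, all gene lists and the markers were chosen with earlier results of these data known. Named genes are the members, other Klr genes at 10 CPM or more, and from each list the 4 with the highest mean in NK-like cells and any past 1.5-fold there. Itga1, Cxcr6, Inpp4b and the marker genes of other classes are named beyond that rule, after their values were seen, and 1 gene that the rule picks is not reported here. Protein features planned for the members were not analysed here.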

Additional observations from a re-analysis of the deposited data

How the results depend on the processing

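Over 17 settings 600 of 621 ratios of single members and 147 of 155 summed ratios stayed within their counting interval. Some settings could hardly move a ratio, such as pseudocounts of 1 to 20 CPM at high levels. In NK-like cells clustering at resolution 0.5 and leaving out doublets changed nothing in the panobinostat gene count (761 of 3190 past 1.5-fold). The high agreement is therefore no measure of stability. Of 102 ratios of cell shares 8 moved and 2 reversed: with every library held to 1 lowest UMI count, the givinostat share of Xcl1 lymphocytes turned from below to above vehicle (1.824), as did the ruxolitinib share of Type 17 gamma-delta T-like cells (1.929). The summed givinostat ratio was 1.14 in Type 17 gamma-delta T-like cells, with an interval that includes 1. It was 0.8902 in gamma-delta cells taken by gates, which use no Type 17 gene. Of counts of members past 1.5-fold, 38 of 155 moved by over 1.5 times. In what follows drugs stand in the order panobinostat, givinostat and ruxolitinib. In NK-like cells the counts were 1, 0 and 1. They were 3, 1 and 2 of 9 with lymphocyte clustering at resolution 2.0, where 19.3%, 16.2% and 20.2% of all genes passed, 3, 2 and 4 of 8 with cell by cell gates, where 26%, 27.3% and 35.5% did, and 2, 1 and 2 of 9 with no minimum level, where 56.2%, 55.6% and 52.6% did. With Klr genes kept for clustering ruxolitinib gave 2 (22.2% of genes), with TMM or DESeq2 factors 0 (25.4% and 25.2%), and at a fold of 2 panobinostat and ruxolitinib gave 0 (6.99% and 8.94%). In Xcl1 lymphocytes the counts were 3, 2 and 1. Panobinostat gave 1 of 6 at resolution 2.0 (13.7% of genes) and 5 of 9 with no minimum (47.9%). Givinostat gave 1 of 6 with Klr genes kept (12.9%) and 1 of 5 at a minimum of 100 CPM (8.42%). Ruxolitinib gave 0 of 7 with the stricter cell filter (12.9%) and 3 of 7 with every library held to 1 lowest UMI count (25.2%). A fold of 2 gave 0, 0 and 0 (2.28%, 2.05% and 2.57%). In CD8 T-like cells resolution 2.0 gave 1 and 2 of 3 for panobinostat and givinostat (13.6% and 10.9%), and no minimum gave 4 of 7, 5 of 7 and 2 of 6 (45%, 45.2% and 46.6%). In naive CD8 T-like cells no minimum gave 5 of 6, 5 of 6 and 4 of 5 (55.1%, 55.8% and 54.2%), the UMI limit gave 1 of 2 for ruxolitinib (26.7%) and 100 CPM gave 0 of 1 for givinostat (9.37%). In Type 17 gamma-delta T-like cells no minimum gave 1 of 3 and 2 of 4 for givinostat and ruxolitinib (43.9% and 47.2%). Gates for gamma-delta cells asked for a Trdc and a Cd3 UMI but for no Type 17 gene. They took in cells outside that class, with 145 cells against 110 under givinostat. These gates gave 3 of 4, 1 of 2 and 0 of 2 for panobinostat, givinostat and ruxolitinib (23.9%, 11.6% and 13%).

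The summed ratio in NK-like cells was 1.413, 1.352 and 1.541 with gates and 1.192 for panobinostat with Klr genes kept. It was 1.356 in Xcl1 lymphocytes of givinostat under the UMI limit. Gates gave a share of gamma-delta cells of 0.3911 times vehicle for panobinostat. Under the UMI limit, shares relative to vehicle were 9.789 and 2.756 for NK-like cells of givinostat and ruxolitinib, 1.824 and 0.8406 for Xcl1 lymphocytes of these libraries and 4.534 and 1.929 for their Type 17 gamma-delta T-like cells. They were 0.4504 and 3.141 for CD8 T-like cells of panobinostat and givinostat and 0.677 for naive CD8 T-like cells of panobinostat. Klra genes per NK-like cell without thinning were 2.232, 2.358, 2.016 and 2.204 in panobinostat, givinostat, ruxolitinib and vehicle. Except for the UMI limit, which removes shallow cells by construction, the cause was not tested.

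Chosen after seeing the data, the NK-like cluster of the first clustering gave counts of 1 and 2 of 8 for givinostat and ruxolitinib (16.6% and 22% of genes) and summed ratios of 1.191 and 1.313 for panobinostat and ruxolitinib. The 40-cell minimum and the Xcl1 class were also chosen after seeing the data. Under the UMI limit the vehicle library kept 8 NK-like, 20 Type 17 gamma-delta T-like and 37 CD8 T-like cells, so no drug had a receptor ratio in these classes, and panobinostat had none in Xcl1 lymphocytes or naive CD8 T-like cells. The NK-like receptor ratios were thus not examined at a common lowest UMI count. No paired analysis was possible because each group has 1 library. No replicate could be left out for the same reason.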

Other observations

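4 lymphocyte clusters that no marker list named also held receptor UMIs. The one led by the kidney tubule genes Kap and Acsm2 held 136, 55, 109 and 116 UMIs of the 9 members in 28, 32, 16 and 26 cells of the panobinostat, givinostat, ruxolitinib and vehicle libraries. The one led by Slc12a3 held 51, 47, 9 and 85 UMIs in 7, 11, 2 and 8 cells. A cluster led by the proliferation gene Pclaf held 3, 73, 34 and 5 UMIs in 5, 14, 11 and 3 cells, and one led by Cd74 and Ifit1 held 5, 21, 15 and 55 UMIs in 5, 27, 11 and 12 cells.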
